A study of Mus musculus with 6 samples.

Results

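Cells make cholesterol and fatty acids in the cytosol and the endoplasmic reticulum, and the enzymes of both routes are coordinated by the sterol regulatory element-binding proteins (SREBPs). The genes described here are 35 of the 27998 genes in the deposited count matrix: 18 enzymes of sterol synthesis and the sterol carrier Stard4, which form the sterol arm of 19 genes, 11 genes of fatty acid synthesis, which form the fatty acid arm, and 5 regulators of the SREBP system. They were listed by name as a pathway, with earlier results of these data known, and all 35 symbols matched 1 Ensembl identifier each. Single-cell RNA sequencing was done on mouse epithelial monolayers, derived from intestinal organoids and differentiated. All libraries come from mice described as Rosa26-floxed STOP-Cas9 x cmv-cre, on B6, a strain that carries a Cas9 transgene. The monolayers received DMSO, the solvent, or tunicamycin (Tm) at 0.5 µg/ml, an inhibitor of N-linked glycosylation that causes misfolded proteins to build up in the endoplasmic reticulum. The 3 groups were DMSO, Tm for 13 h and Tm for 25 h, with 2 libraries each that the submitters call biological replicates. Treatment began on differentiation day 3 and all monolayers were harvested on day 4; the 13 h cultures stood for 12 h in DMSO before Tm was added. The labels name the small intestine as the tissue, while the growth protocol starts from colonic spheroids, and the data were not used to decide between them.

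SREBPs are made as membrane-bound precursors in the endoplasmic reticulum. When sterols are low, SCAP escorts them to the Golgi, where they are cut to release a transcription factor. When sterols are high, INSIG proteins hold SCAP back in the endoplasmic reticulum. SREBP2, from Srebf2, acts mainly on genes of cholesterol synthesis, and SREBP1, from Srebf1, mainly on genes of fatty acid synthesis. Insig1 is itself a target of the pathway. The intestinal epithelium makes cholesterol and also absorbs it from food and bile. These statements are background; protein cleavage and lipid levels were not measured.

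The DNA before an annotated start is shown for 6 genes. Dhcr7 and Tm7sf2 are the sterol genes with the deepest fall at 13 h and at 25 h in enterocytes. Acss2 and Insig1 fell most there in the fatty acid arm and among the regulators. Ebp is shown as the sterol gene that did not fall in enterocytes, and Hmgcs1 because it holds the only match to the SREBP element. RefSeq promoter windows on GRCm38.p6, each running from 250 bases before to 50 bases after an annotated start, were found for 28 of the 35 genes; Fdps, Fdft1, Sqle, Stard4, Scd1, Scd2 and Fads1 had none in the table. Of each window the 250 bases before the start are printed 5′ to 3′ on the gene's strand, in lower case, with capitals for TCACNCCAC (the SREBP element), CACGTG (E-box) and CCAAT (the NF-Y box, ATTGG on the other strand). The windows printed are chr13:119690101-119690350 on the + strand for Hmgcs1, chr7:143829964-143830213 on the + strand for Dhcr7, chr19:6067851-6068100 on the - strand for Tm7sf2, chrX:8193513-8193762 on the - strand for Ebp, chr2:155517793-155518042 on the + strand for Acss2, and chr5:28071162-28071411 on the + strand for Insig1. Dhcr7 has 3 annotated starts, and the window of the one farthest downstream, inside the gene, was chosen after the search because it alone holds CCAAT. By the GENCODE gene bounds the Tm7sf2 window also lies inside its gene, and the windows of Acss2 and Insig1 reach into theirs.
Hmgcs1: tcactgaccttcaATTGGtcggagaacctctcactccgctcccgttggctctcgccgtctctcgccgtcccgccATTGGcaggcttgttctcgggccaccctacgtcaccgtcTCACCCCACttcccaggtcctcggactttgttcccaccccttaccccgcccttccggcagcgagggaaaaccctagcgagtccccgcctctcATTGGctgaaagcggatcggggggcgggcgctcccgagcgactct
Dhcr7: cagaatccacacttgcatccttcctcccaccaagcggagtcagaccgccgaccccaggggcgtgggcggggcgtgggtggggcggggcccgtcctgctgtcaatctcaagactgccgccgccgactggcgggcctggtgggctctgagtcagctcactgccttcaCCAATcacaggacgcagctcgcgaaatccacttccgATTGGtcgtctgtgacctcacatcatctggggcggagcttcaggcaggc
Tm7sf2: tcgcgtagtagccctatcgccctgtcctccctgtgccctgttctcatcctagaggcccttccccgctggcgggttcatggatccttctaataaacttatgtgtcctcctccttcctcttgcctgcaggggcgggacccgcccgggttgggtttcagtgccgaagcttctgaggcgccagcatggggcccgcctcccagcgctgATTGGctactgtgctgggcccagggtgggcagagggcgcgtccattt
Ebp: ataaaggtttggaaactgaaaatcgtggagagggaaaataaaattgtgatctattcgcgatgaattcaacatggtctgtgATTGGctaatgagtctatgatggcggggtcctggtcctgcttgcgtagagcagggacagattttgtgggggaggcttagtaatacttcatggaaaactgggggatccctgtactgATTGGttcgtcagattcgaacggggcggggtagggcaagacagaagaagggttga
Acss2: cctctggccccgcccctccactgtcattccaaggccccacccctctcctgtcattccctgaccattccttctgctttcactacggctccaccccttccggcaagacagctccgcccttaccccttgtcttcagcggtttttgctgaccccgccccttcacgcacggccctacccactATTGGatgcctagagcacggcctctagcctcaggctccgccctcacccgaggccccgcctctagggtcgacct
Insig1: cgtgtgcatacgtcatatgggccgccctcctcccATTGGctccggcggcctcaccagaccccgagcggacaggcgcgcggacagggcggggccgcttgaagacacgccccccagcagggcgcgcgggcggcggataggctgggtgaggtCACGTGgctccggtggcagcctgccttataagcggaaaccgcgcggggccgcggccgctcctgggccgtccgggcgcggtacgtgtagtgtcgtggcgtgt
The exact SREBP element was rare: 1 of the 28 genes held it, Hmgcs1, and 1.24% of all 32851 mouse promoter windows did. The CCAAT box, bound by NF-Y, a partner of SREBPs, was in 23 of the 28 genes, or in 64.9% of their 37 windows, against 37.4% of all windows. Within the sterol arm 14 of 15 genes with a window held CCAAT, and Acat2 did not. The Sp1 box GGGCGG was in 73.0% of the genes' windows and in 35.7% of all windows. CACGTG was in 18.9% of their windows, against 7.15% of all windows. TGATGNAA, the element read by ATF4 and C/EBP factors, was in 8.11% of their windows, those of Idi1 and Insig2, against 3.97% of all windows. Both strands were searched over the whole 300 bases and matches of different motifs never overlapped in these genes. Ebp, whose level did not fall in enterocytes, held 2 CCAAT boxes in its window. Dhcr7, which fell, held 2 in the window chosen because it has that box, and none in the windows of its other starts. A match describes the letters only and shows neither binding nor a cause.

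The matrix held 5122 cells with the submitters' class for each, enterocyte, goblet or tuft. After removal of 96 cells over 25% mitochondrial counts, 5026 cells were used. The 2 libraries of a group held 1046 and 1037 enterocytes with DMSO, 686 and 726 after 13 h of Tm and 426 and 447 after 25 h; they held 105 and 109 goblet cells with DMSO, 77 and 75 after 13 h of Tm and 98 and 86 after 25 h. The cells carried 12 barcodes that occur in more than 1 library. The p-values below weigh each change against the spread between the 2 libraries of a group, estimated over all 3 groups together. Each gene's estimate was drawn toward the trend over all genes tested. For the difference between classes the spread was that of the goblet and enterocyte difference between the libraries of a group. Transcripts were counted as unique molecular identifiers (UMIs), with medians of 14757 to 17862 per enterocyte and 11573 to 13437.5 per goblet cell in a library. UMIs were summed per library and class, scaled to a common total as CPM with TMM factors and tested with edgeR, with p-values adjusted over all genes tested and a threshold of 0.05. As a check of the treatment, Hspa5, the chaperone BiP, had a log2 fold change of 4.76 ± 0.11 at 13 h and 4.02 ± 0.10 at 25 h in enterocytes; Ddit3, the stress factor CHOP, gave 4.11 ± 0.10 and 3.34 ± 0.10. The class labels were checked against markers; the goblet markers separated the classes and the enterocyte markers did so weakly. All 8 goblet markers were detected in both classes; they summed to 79274 to 196500 CPM in goblet cells and to 2347 to 3922 CPM in enterocytes, and the fibroblast markers Col1a1, Col1a2, Col3a1 and Dcn reached at most 0.0828 CPM in any library of either class. Of 10 enterocyte markers Fabp1 was at 0 in 5 of 6 enterocyte libraries and Car4 in 3 of 6. The enterocyte markers summed to 2794 to 2861 CPM in goblet cells and 3521 to 3548 CPM in enterocytes in DMSO, to 1530 to 1551 CPM and 2068 to 2209 CPM at 13 h, and to 1023 to 1279 CPM and 1615 to 1790 CPM at 25 h in the same classes. In every enterocyte library the goblet markers summed to more than the enterocyte markers. The enterocyte marker sum was lower after Tm in both classes, as were the genes described below, and its part in these results was not tested.

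In enterocytes Tm lowered nearly the whole of both arms. At 13 h, 16 of 19 sterol genes and all 9 fatty acid genes that could be tested fell and none rose, while 23.8% of the 11145 genes tested in enterocytes fell and 23.8% rose. At an unadjusted p below 0.05, edgeR had 2 of the 33 genes higher at 13 h, Ebp and Scap, and DESeq2 had none at either p. The share of all genes past an unadjusted p was not counted for any comparison. The median log2 fold change was -0.40 for the sterol arm and -0.47 for the fatty acid arm, against 0.01 for all genes tested. At 25 h, 17 sterol genes and all 9 fatty acid genes tested fell, with 24.2% of all genes falling, and 2 of the 33 genes tested rose, Ebp and Scap, with 26.1% of all genes rising; the medians were -0.69 and -0.78, against 0.03. The fitted level was at least 2-fold lower after Tm for 5 genes at 13 h and for 12 genes at 25 h. The share of all genes tested that were 2-fold lower was not counted, so these counts have no background beside them. Fads1 and Fads2, the desaturases of polyunsaturated fatty acids, stayed at or below 0.677 CPM in every enterocyte library and were not tested. Both Tm groups are compared with the same pair of DMSO libraries.

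**Figure D1:**
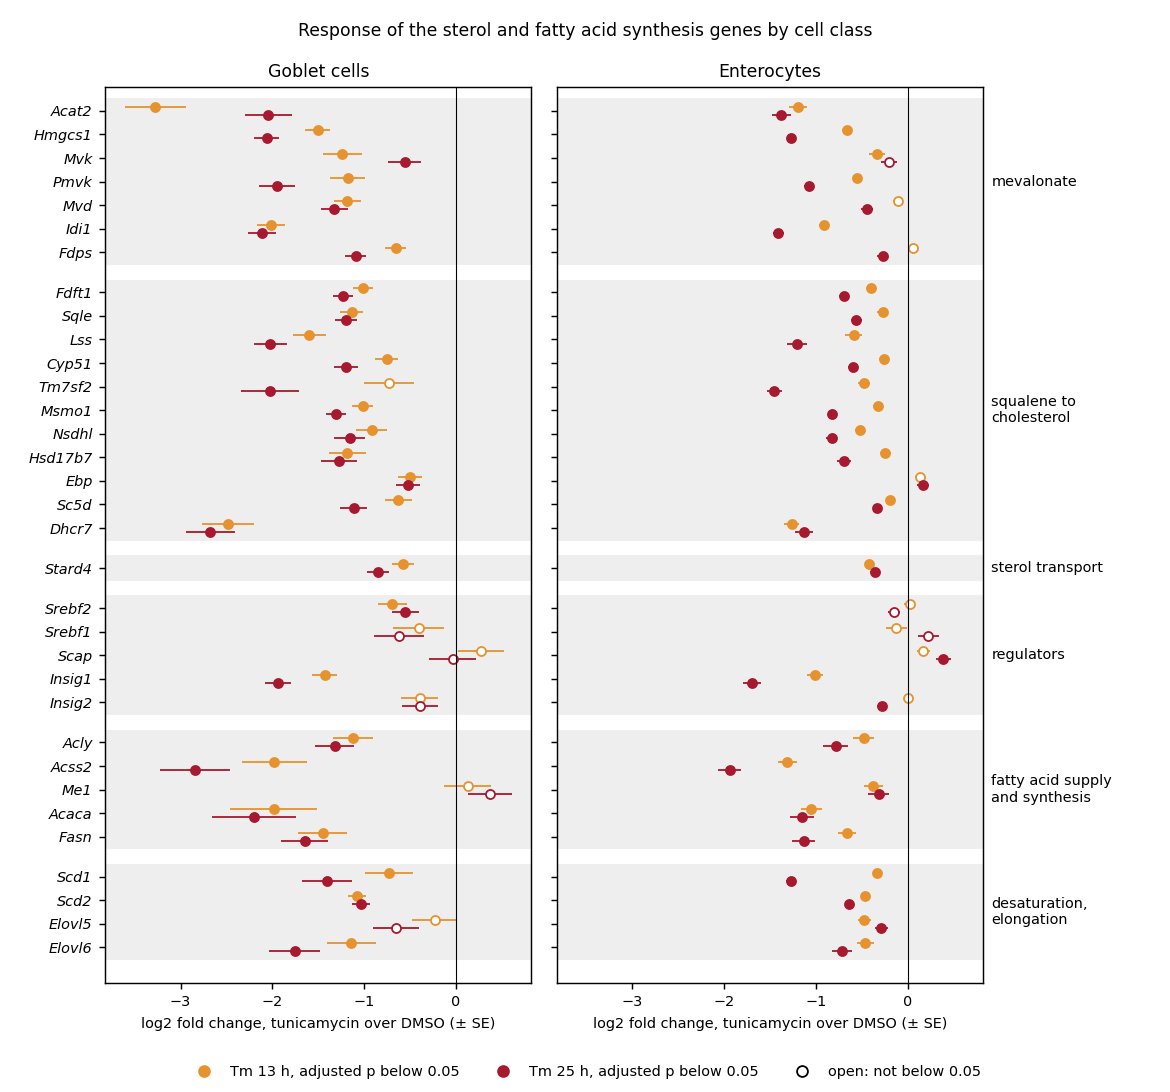
Log2 fold change over DMSO (x axis, bars: standard error) of the 33 genes tested, grouped by role (y axis), in goblet cells (left) and enterocytes (right), after 13 h (orange) and 25 h (dark red) of Tm; filled points passed an adjusted p of 0.05. Most points lie left of 0 in both classes, and in goblet cells all 19 sterol genes lie at more negative values than in enterocytes at both times.

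The mevalonate pathway turns acetyl-CoA into the isoprenoid units from which sterols are built. Of its 7 genes, 5 fell at 13 h and 6 at 25 h in enterocytes. Acat2, the cytosolic thiolase of the first step, stood at 22.96 and 24.5 CPM in the DMSO libraries, 10.6 and 10.2 CPM at 13 h and 9.44 and 8.88 CPM at 25 h. All 4 Tm libraries were below both DMSO libraries, with log2 fold changes of -1.19 ± 0.09 (adjusted p = 1.40e-07) and -1.37 ± 0.11 (adjusted p = 1.14e-07). Hmgcs1, which makes HMG-CoA, measured 440.4 and 472 CPM in DMSO, 291 and 285 CPM at 13 h and 188 and 191 CPM at 25 h. Its log2 fold changes were -0.66 ± 0.05 (adjusted p = 5.38e-08) and -1.27 ± 0.05 (adjusted p = 7.99e-11), and the 3 groups did not overlap. Idi1, the isomerase of isopentenyl diphosphate, had 106 and 109 CPM in DMSO, 56.05 and 58.5 CPM at 13 h and 39.3 and 41.7 CPM at 25 h. It fell with log2 fold changes of -0.91 ± 0.05 (adjusted p = 4.94e-09) and -1.41 ± 0.06 (adjusted p = 1.62e-10), the larger of them the deepest fall of this role group at 25 h. Pmvk, the second of the mevalonate kinases, fell with log2 fold changes of -0.55 ± 0.05 and -1.07 ± 0.06. Mvk, the first kinase, had 20.7 and 22.8 CPM in DMSO, 17.3 and 17.1 CPM at 13 h and 18.8 and 19.03 CPM at 25 h, and its log2 fold change of -0.33 ± 0.08 passed at 13 h (adjusted p = 0.0046; 0.0716 with DESeq2) while that of -0.20 ± 0.09 at 25 h did not (adjusted p = 0.0814), though it did without the first DMSO library (-0.29). Mvd, the decarboxylase, passed only at 25 h, at -0.44 ± 0.06, after -0.10 ± 0.06 at 13 h (adjusted p = 0.153). Fdps, the synthase of farnesyl diphosphate, stood apart at 13 h. It measured 336 and 386 CPM in DMSO, 379 and 372 CPM at 13 h and 301 and 298 CPM at 25 h, so that the 13 h libraries lay inside the DMSO range and the 25 h libraries below it. Its log2 fold change was 0.06 ± 0.06 at 13 h (adjusted p = 0.428) and -0.27 ± 0.06 at 25 h (adjusted p = 0.00159).

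From squalene onward, 10 of 11 genes fell at 13 h and 10 at 25 h in enterocytes; Ebp was the other one at each time. Dhcr7, which reduces dehydrocholesterol to cholesterol, had 33.2 and 32.9 CPM in DMSO, 14.96 and 12.6 CPM at 13 h and 15.4 and 14.9 CPM at 25 h. Its log2 fold change of -1.26 ± 0.09 at 13 h was the deepest of the sterol arm at that time (adjusted p = 2.88e-08), and at 25 h it was -1.13 ± 0.09 (adjusted p = 1.99e-07). Tm7sf2, a sterol reductase that acts after lanosterol, followed another course, with 49.7 and 48.6 CPM in DMSO, 34.02 and 36.8 CPM at 13 h and 16.997 and 18.8 CPM at 25 h. The log2 fold change was -0.47 ± 0.06 at 13 h and -1.45 ± 0.08 at 25 h (adjusted p = 3.24e-09), the deepest of the sterol arm at 25 h. Lss, which closes the sterol rings to give lanosterol, had 32.5 and 36.4 CPM in DMSO, 24.6 and 21.4 CPM at 13 h and 13.1 and 16.6 CPM at 25 h, and fell with log2 fold changes of -0.58 ± 0.09 and -1.21 ± 0.11. Nsdhl, a dehydrogenase of sterol demethylation, fell with a log2 fold change of -0.52 ± 0.06 at 13 h, the third of the role group's deepest falls at that time, and of -0.83 ± 0.06 at 25 h. The other genes that fell were Fdft1 (squalene synthase), Sqle (squalene epoxidase), Cyp51 (lanosterol demethylase), Msmo1 (methylsterol monooxygenase), Hsd17b7 (a ketoreductase of sterol demethylation) and Sc5d (the lathosterol desaturase). Their log2 fold changes ran from -0.40 for Fdft1 to -0.19 for Sc5d at 13 h, and from -0.82 for Msmo1 to -0.33 for Sc5d at 25 h. The 13 h call of Hsd17b7 was lost with DESeq2 (adjusted p = 0.0948). Stard4, the sterol carrier, fell with log2 fold changes of -0.41 ± 0.05 and -0.36 ± 0.05. Ebp, a sterol isomerase, had 84.9 and 96.2 CPM in DMSO, 96.8 and 103 CPM at 13 h and 104 and 99.9 CPM at 25 h, so both Tm groups lay at or above the higher DMSO library. Its log2 fold change of 0.17 ± 0.06 at 25 h passed the threshold (adjusted p = 0.041) and was 0.14 ± 0.06 at 13 h (adjusted p = 0.0724). The call at 25 h was lost under 9 of 14 other settings, among them without the first DMSO library, where the log2 value was 0.06, and with DESeq2, where the adjusted p was 0.235.

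**Figure D2:**
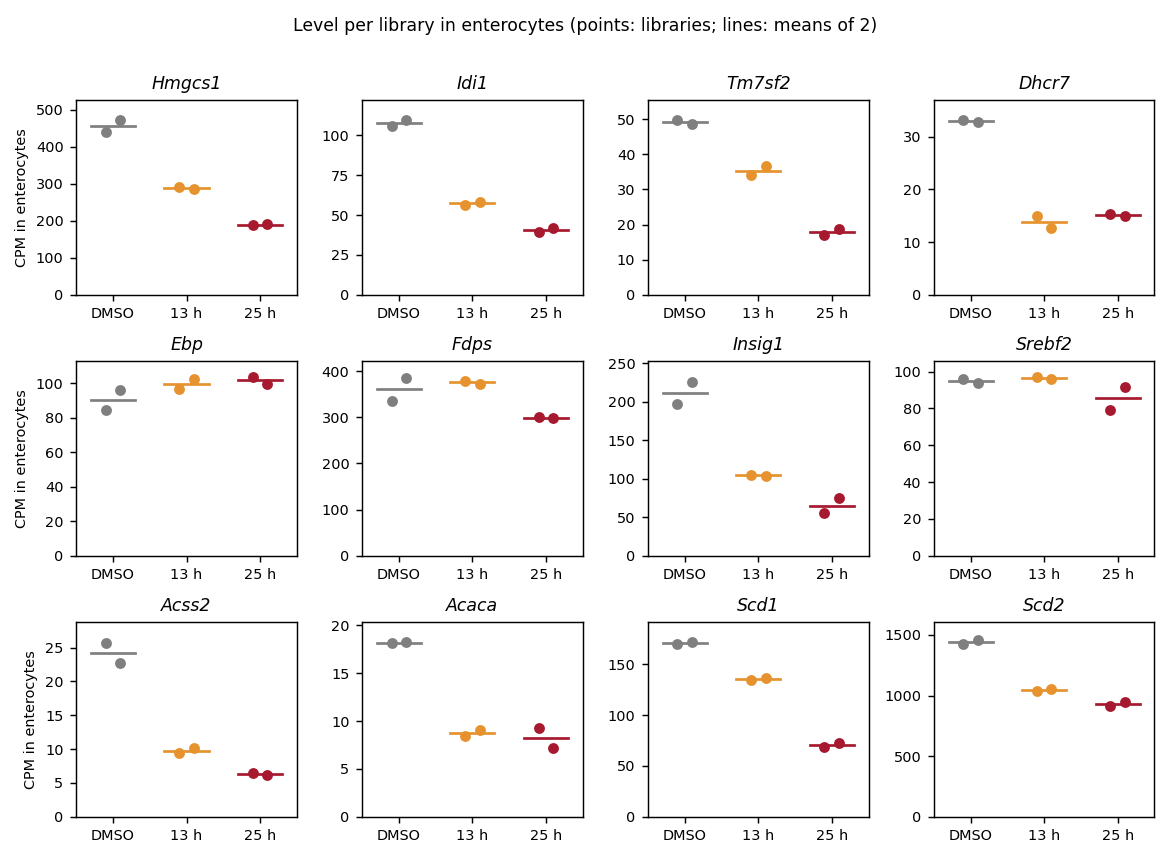
CPM in enterocytes (y axis, from 0) in each of the 2 libraries per group (points) and their mean (line) for 12 genes in DMSO, Tm 13 h and Tm 25 h. Hmgcs1, Idi1, Tm7sf2, Insig1, Acss2 and Scd1 stepped down at each time, Dhcr7 and Acaca overlapped between 13 h and 25 h, and Ebp and Srebf2 had no fall past the threshold at either time.

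The regulators did not move as the enzymes did. Insig1, which holds SCAP in the endoplasmic reticulum, fell most of the 5: it had 197 and 226 CPM in DMSO, 106 and 104 CPM at 13 h and 55.02 and 74.7 CPM at 25 h, with no overlap between groups. Its log2 fold changes were -1.01 ± 0.09 (adjusted p = 3.79e-07) and -1.70 ± 0.10 (adjusted p = 4.31e-09). Insig2, its relative, measured 75.8 and 76.2 CPM in DMSO, 78.9 and 74.1 CPM at 13 h and 61.9 and 63.5 CPM at 25 h. It did not pass at 13 h and fell with a log2 fold change of -0.28 ± 0.06 at 25 h (adjusted p = 9.56e-04). Srebf2, the SREBP2 precursor gene, had 95.8 and 93.8 CPM in DMSO, 96.9 and 95.7 CPM at 13 h and 79.3 and 91.4 CPM at 25 h. The 13 h and DMSO libraries overlapped, and neither log2 fold change passed, 0.02 ± 0.06 at 13 h and -0.15 ± 0.06 at 25 h (adjusted p = 0.0587); under 7 other settings the 25 h fall passed. Srebf1 had 21.7 and 21.1 CPM in DMSO, 17.5 and 21.7 CPM at 13 h and 28.2 and 22.02 CPM at 25 h, with the 13 h and DMSO libraries overlapping and the 25 h libraries above both. Its log2 fold changes of -0.12 ± 0.11 and 0.23 ± 0.12 did not pass; without the second 25 h library the 25 h value of 0.40 did. Counts from the transcript end were not split into the gene's isoforms. Scap had 21.02 and 22.1 CPM in DMSO, 24.4 and 24.2 CPM at 13 h and 29.2 and 27.3 CPM at 25 h. It rose at 25 h by 0.39 ± 0.08 on the log2 scale (adjusted p = 0.00102), and its value of 0.17 ± 0.08 at 13 h did not pass.

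The fatty acid arm begins with the enzymes that supply acetyl-CoA and reducing power. Acss2, which makes acetyl-CoA from acetate, had 25.7 and 22.8 CPM in DMSO, 9.37 and 10.2 CPM at 13 h and 6.42 and 6.23 CPM at 25 h. Its log2 fold changes of -1.31 ± 0.10 (adjusted p = 1.26e-07) and -1.94 ± 0.13 (adjusted p = 1.64e-08) were the deepest of all 33 genes tested in enterocytes at both times. Acaca, the acetyl-CoA carboxylase that commits carbon to fatty acids, had 18.1 and 18.3 CPM in DMSO, 8.46 and 9.10 CPM at 13 h and 9.32 and 7.15 CPM at 25 h. It fell with log2 fold changes of -1.05 ± 0.11 (adjusted p = 3.68e-06) and -1.15 ± 0.13 (adjusted p = 4.47e-06), with most of the difference present at 13 h. Fasn, the fatty acid synthase, had 20.5 and 18.5 CPM in DMSO, 12.8 and 11.96 CPM at 13 h and 9.69 and 8.19 CPM at 25 h, and fell with log2 fold changes of -0.66 ± 0.10 and -1.13 ± 0.12. Acly, which cleaves citrate, fell with log2 fold changes of -0.48 ± 0.11 and -0.78 ± 0.13; its 13 h call was lost without the first DMSO library (-0.31, adjusted p = 0.0534). Me1, the malic enzyme that yields NADPH, had 21.5 and 26.3 CPM in DMSO, 18.98 and 17.8 CPM at 13 h and 17.6 and 20.6 CPM at 25 h. Its falls of -0.38 ± 0.10 (adjusted p = 0.00874) and -0.31 ± 0.11 (adjusted p = 0.0349) both lost their call without the second DMSO library, at -0.24 and -0.19 on the log2 scale, and with DESeq2, with adjusted p = 0.06 and 0.113.

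Among the enzymes that desaturate and lengthen fatty acids, all 4 that could be tested fell at both times. Scd1, a stearoyl-CoA desaturase, had 169.5 and 172 CPM in DMSO, 134 and 137 CPM at 13 h and 68.99 and 72.1 CPM at 25 h, with log2 fold changes of -0.33 ± 0.04 (adjusted p = 2.73e-05) and -1.27 ± 0.05 (adjusted p = 7.97e-11). Scd2, its neighbour on chromosome 19, had 1424 and 1459 CPM in DMSO, 1034 and 1053 CPM at 13 h and 915 and 943 CPM at 25 h, and fell with log2 fold changes of -0.47 ± 0.04 and -0.63 ± 0.04. The groups of both genes were separate at each time, and most of the fall of Scd1 came after 13 h while most of that of Scd2 came before. Scd1 and Scd2 are similar in sequence (Scd1 at chr19:44394455-44407879 and Scd2 at chr19:44293674-44306864 in GENCODE, GRCm38), and reads that match both genes may have been assigned unevenly. Elovl6, which lengthens saturated and monounsaturated chains, fell with log2 fold changes of -0.46 ± 0.09 and -0.72 ± 0.11. Elovl5, which lengthens polyunsaturated chains, had 52.02 and 53.1 CPM in DMSO, 35.3 and 40.5 CPM at 13 h and 42.3 and 43.8 CPM at 25 h and fell with log2 fold changes of -0.47 ± 0.07 and -0.29 ± 0.07.

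Between 13 h and 25 h the enterocyte levels fell further in 13 sterol genes and 4 fatty acid genes, and in 10.9% of all genes tested; none of the 33 rose, against 10.4% of all genes; at an unadjusted p below 0.05 edgeR had 3 higher, Elovl5, Scap and Srebf1, and DESeq2 1, Srebf1. The deepest further falls were those of Tm7sf2 at -0.98 ± 0.09 (adjusted p = 2.64e-06) and Scd1 at -0.94 ± 0.05 (adjusted p = 4.18e-08) on the log2 scale, followed by Insig1 at -0.69 ± 0.10, Acss2 at -0.63 ± 0.15 and Lss at -0.62 ± 0.12. The 6 sterol genes with no further change past the threshold were Acat2, Mvk, Ebp, Sc5d, Dhcr7 and Stard4. Dhcr7 (0.14 ± 0.11) and Acat2 (-0.18 ± 0.13), which had fallen most at 13 h, were among them. The fatty acid genes that fell further were Acss2, Fasn, Scd1 and Scd2; the call of Fasn was lost with DESeq2 (adjusted p = 0.106). The fatty acid count was 1 without the second 13 h library and 2 without the second 25 h library; the sterol count stayed at 13 whichever library was left out.

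Goblet cells, which secrete mucin, showed the same direction with larger median changes. At 13 h, 18 of 19 sterol genes and 7 of 9 fatty acid genes tested fell, while 11.5% of the 7839 genes tested in goblet cells fell and 10.8% rose. At 25 h all 19 sterol genes and 7 fatty acid genes fell, while 16% of genes tested fell and 15.8% rose. None of the 33 genes rose at either time, with edgeR or DESeq2, and none was higher at an unadjusted p below 0.05. The median log2 fold changes were -1.14 at 13 h and -1.28 at 25 h for the sterol arm and -1.12 and -1.41 for the fatty acid arm, against -0.01 and -0.0035 for all genes tested. Few further changes passed: between 13 h and 25 h only Hmgcs1 (-0.56 ± 0.14) and Fdps (-0.44 ± 0.11) fell and none of the 33 rose, while 1.47% of genes tested fell and 2.03% rose. Neither call held without the first DMSO library, the second 13 h library or the second 25 h library. At an unadjusted p below 0.05, Acat2 (1.23 ± 0.44) and Mvk (0.68 ± 0.22) were higher at 25 h than at 13 h in goblet cells with edgeR, and 1 of them, Acat2, with DESeq2. The groups compared here are small in cells, 75 to 98 per library. Goblet markers in goblet cells summed to 183020 to 196500 CPM in DMSO, 113100 to 121250 CPM at 13 h and 79274 to 95624 CPM at 25 h; the part of this change in these results was not tested. Scaling to total counts moved the median of all genes in goblet cells by 0.16 at 13 h and 0.13 at 25 h on the log2 scale, and under it 17 and 18 sterol genes still fell.

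All 7 mevalonate genes fell at both times in goblet cells. Acat2 had 78.1 and 57.4 CPM in DMSO, 3.66 and 10.1 CPM at 13 h and 18.9 and 13.3 CPM at 25 h. Its log2 fold changes were -3.28 ± 0.33 (adjusted p = 4.27e-07) and -2.04 ± 0.26 (adjusted p = 3.86e-06), and all 4 Tm libraries were below both DMSO libraries. The 13 h values of Acat2 rest on 4 and 11 UMIs. Hmgcs1 had 1086 and 961 CPM in DMSO, 333 and 386 CPM at 13 h and 288 and 199 CPM at 25 h, with log2 fold changes of -1.51 ± 0.14 and -2.06 ± 0.14. Idi1 had 271 and 219 CPM in DMSO, 54.1 and 66.9 CPM at 13 h and 56.1 and 57.1 CPM at 25 h, with -2.02 ± 0.16 and -2.11 ± 0.15. Between 25 h and 13 h Idi1 differed by -0.10 ± 0.19 on the log2 scale in goblet cells, which did not pass (adjusted p = 0.863). Fdps, which did not pass at 13 h in enterocytes, had 879 and 933 CPM in DMSO, 594 and 554 CPM at 13 h and 473 and 374 CPM at 25 h in goblet cells and fell with log2 fold changes of -0.66 ± 0.11 (adjusted p = 2.15e-04) and -1.09 ± 0.11 (adjusted p = 2.82e-07). Mvd fell with log2 fold changes of -1.19 ± 0.15 and -1.32 ± 0.15. Mvk and Pmvk fell at both times as well, Mvk with -1.24 ± 0.21 and -0.56 ± 0.18 and Pmvk with -1.18 ± 0.19 and -1.95 ± 0.20. The 25 h call of Mvk was lost without the first DMSO library (-0.48) and without the second 25 h library (-0.38), and also when scaled to total counts (adjusted p = 0.0887) and with DESeq2 (adjusted p = 0.27).

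After squalene, Dhcr7 was again the deepest in goblet cells, with 48.7 and 49.5 CPM in DMSO, 9.16 and 8.25 CPM at 13 h and 8.79 and 6.25 CPM at 25 h and log2 fold changes of -2.48 ± 0.28 (adjusted p = 1.80e-06) and -2.67 ± 0.27 (adjusted p = 2.18e-07). Tm7sf2 had 36.1 and 38.5 CPM in DMSO, 16.5 and 28.4 CPM at 13 h and 6.76 and 11.7 CPM at 25 h; its -0.73 ± 0.27 at 13 h did not pass (adjusted p = 0.0602; -1.17 without the second 13 h library, which passed) and its -2.03 ± 0.31 at 25 h did (adjusted p = 4.60e-05). Ebp, the gene that did not fall in enterocytes, had 176 and 162 CPM in DMSO, 125 and 114 CPM at 13 h and 117 and 118 CPM at 25 h and fell with log2 fold changes of -0.50 ± 0.13 (adjusted p = 0.00877) and -0.52 ± 0.13 (adjusted p = 0.00368). The 13 h call of Ebp was lost under total-count scaling (adjusted p = 0.0822), DESeq2 (adjusted p = 0.115) and without the first DMSO or the second 13 h library, and the 25 h call with DESeq2 (adjusted p = 0.065). The remaining squalene-to-cholesterol genes fell at both times, from -2.02 for Lss at 25 h to -0.63 for Sc5d at 13 h. Stard4 fell with log2 fold changes of -0.58 ± 0.12 and -0.85 ± 0.12. The 13 h calls were lost for Sc5d without the second 13 h library (-0.52) and with DESeq2 (adjusted p = 0.0546), and for Stard4 without the first 13 h library (-0.44).

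Of the regulators in goblet cells, Insig1 and Srebf2 fell and Srebf1, Scap and Insig2 did not pass at either time; Insig2 passed at 25 h without the second DMSO library (-0.63). Insig1 had 214 and 236 CPM in DMSO, 91.6 and 75.2 CPM at 13 h and 59.5 and 57.9 CPM at 25 h and fell with log2 fold changes of -1.43 ± 0.14 and -1.94 ± 0.14. Srebf2 had 128 and 126 CPM in DMSO, 70.5 and 86.2 CPM at 13 h and 94.03 and 78.2 CPM at 25 h, with log2 fold changes of -0.69 ± 0.15 (adjusted p = 0.00264) and -0.55 ± 0.15 (adjusted p = 0.00674). The 13 h call of Srebf2 was lost without the first 13 h library (adjusted p = 0.0538), and its 25 h call without the first DMSO or the second 25 h library and with DESeq2 (adjusted p = 0.103). In the fatty acid arm Acss2 and Acaca fell most, both from low counts. In the 25 h libraries 4.08% and 6.98% of goblet cells held a UMI of Acss2, and 9.18% and 3.49% held a UMI of Acaca. Acss2 had 26.9 and 31.5 CPM in DMSO, 7.33 and 7.33 CPM at 13 h and 2.71 and 5.47 CPM at 25 h and log2 fold changes of -1.98 ± 0.35 and -2.84 ± 0.38. Acaca fell with log2 fold changes of -1.99 ± 0.47 and -2.20 ± 0.46, Fasn with -1.45 ± 0.27 and -1.65 ± 0.26 and Acly with -1.12 ± 0.22 and -1.32 ± 0.21. Scd2 fell with log2 fold changes of -1.08 ± 0.10 and -1.04 ± 0.10 and Elovl6 with -1.14 ± 0.27 and -1.76 ± 0.28. The calls of Acaca and Elovl6 at 13 h were lost with DESeq2 (adjusted p = 0.0702 and 0.124), that of Acaca also without the second DMSO or the first 13 h library, and that of Elovl6 also without the first DMSO library. Scd1 fell with a log2 fold change of -1.41 ± 0.27 at 25 h (adjusted p = 4.92e-04); its 13 h value of -0.73 ± 0.26 lay at the threshold (adjusted p = 0.0499) and lost its call under 6 of 13 other settings. Me1 and Elovl5 did not pass, at 0.37 ± 0.24 and -0.65 ± 0.25 at 25 h.

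Whether goblet cells responded more than enterocytes was tested directly, as the interaction of class and treatment with each library as a block. The difference is the goblet log2 fold change minus the enterocyte one, so a negative value means a deeper fall in goblet cells. At 13 h it was negative and passed for 18 of the 33 genes, among them 16 of 19 sterol genes, Srebf2 and 1 fatty acid gene, Scd2, while 3.33% of the 10458 genes tested for it were negative and passed. At 25 h it passed for 14 sterol genes and for the fatty acid genes Scd2 and Elovl6, while 4.5% of all genes did. It was positive past the threshold for none of the 33 genes at either time, against 1.48% of all genes at 13 h and 2.55% at 25 h. At an unadjusted p below 0.05 it was positive for 1, Me1 at 25 h. Between 25 h and 13 h the difference passed in edgeR for none of the 33 genes, while 0.22% of all genes were negative and 0.306% positive past the threshold. At an unadjusted p below 0.05 it was positive for 4 of the 33 genes and negative for 3. The share of all genes at that unadjusted p was not counted, so these 2 counts have no background beside them. The medians over the sterol arm were -0.76 at 13 h and -0.73 at 25 h, against -0.08 and -0.05 for all genes tested. The point estimate was more negative in goblet cells for 19 of 19 sterol genes at both times and for 7 of 9 fatty acid genes at 13 h and 8 of 9 at 25 h. The share of all genes with a more negative goblet estimate was not counted. It depends on the scaling: with total counts the median difference over all genes was 0.08 at 13 h and 0.07 at 25 h. For Hmgcs1 the difference was -0.89 ± 0.13 at 13 h (adjusted p = 8.87e-06) and -0.85 ± 0.13 at 25 h (adjusted p = 1.36e-05). For Fdps it was -0.76 ± 0.11 (adjusted p = 7.68e-06) and -0.88 ± 0.11 (adjusted p = 2.94e-07), and for Ebp -0.68 ± 0.14 (adjusted p = 0.00142) and -0.73 ± 0.14 (adjusted p = 3.13e-04). Acat2 had the widest difference at 13 h, -2.14 ± 0.37 (adjusted p = 1.43e-04), and at 25 h its -0.73 ± 0.30 did not pass (adjusted p = 0.16). The 13 h goblet libraries held only 4 and 11 UMIs of Acat2. Insig1 had differences of -0.46 ± 0.15 and -0.26 ± 0.16 that did not pass (adjusted p = 0.0618 and 0.419). For Acss2, with its deep fall in both classes, the differences of -0.73 ± 0.39 and -0.97 ± 0.46 did not pass either. Scaling to total counts left 13 sterol genes past the threshold at 13 h and 13 at 25 h. The calls lost under it were those of Pmvk, Cyp51 and Sc5d at 13 h (adjusted p = 0.0953, 0.0886 and 0.269) and of Lss and Elovl6 at 25 h (adjusted p = 0.0603 and 0.0648).

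**Figure D3:**
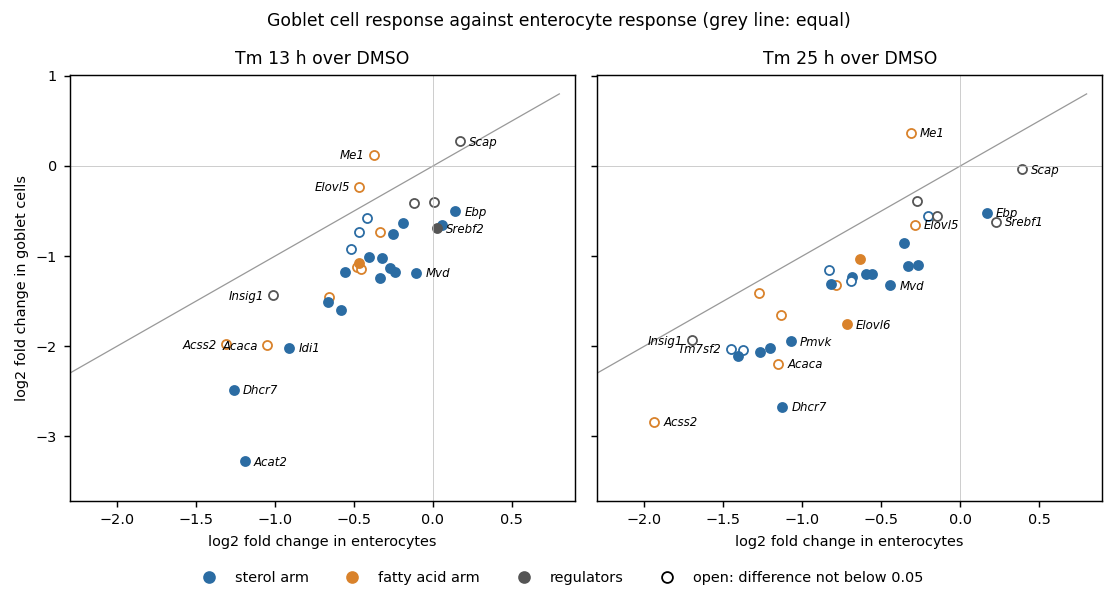
Log2 fold change over DMSO in goblet cells (y axis) against that in enterocytes (x axis) for the 33 genes tested, at 13 h (left) and 25 h (right); filled points passed the test of the difference between classes. All 19 sterol genes lie below the grey line of equal response at both times, and the points above it are Me1 at both times and Elovl5 and Scap at 13 h.

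The summed level of each arm gives the size of the change as a whole; no test was made on these sums. In goblet cells the sterol arm summed to 5754 and 5464 CPM in DMSO, 2728 and 2773 CPM at 13 h and 2383 and 2000 CPM at 25 h, which is 49.0% ± 0.562 (SD, n = 2) of the DMSO mean at 13 h and 39.1% ± 4.83 at 25 h. In enterocytes it summed to 2796 and 3037 CPM in DMSO, 2318 and 2292 CPM at 13 h and 1809 and 1848 CPM at 25 h, or 79.0% ± 0.633 and 62.7% ± 0.942. The fatty acid arm stood at 48.6% ± 1.55 and 47.7% ± 3.24 of the DMSO mean in goblet cells and at 72.3% ± 1.09 and 61.9% ± 1.19 in enterocytes. Scd2 alone made up 80.1% to 83.7% of the fatty acid sum in enterocytes; without it the sum was 72.1% at 13 h and 51.6% at 25 h. With total counts in place of TMM, the goblet sterol sum was 54.9% of the DMSO mean at 13 h and 42.9% at 25 h, and the goblet fatty acid sum 54.4% and 52.3%. Put on 1 scale for both classes, the sterol arm in goblet cells was 2.19 and 1.91 times that in enterocytes in the DMSO libraries, 1.21 and 1.25 times at 13 h and 1.36 and 1.11 times at 25 h. The fatty acid arm in goblet cells was 0.884 and 0.866 times that in enterocytes with DMSO, 0.562 and 0.577 times at 13 h and 0.698 and 0.613 times at 25 h. The sterol sum was thus higher in goblet cells than in enterocytes in all 6 libraries, with smaller ratios in the Tm libraries, and the fatty acid sum was lower in goblet cells in all 6. In each DMSO library 18 of the 19 sterol genes were higher in goblet cells than in enterocytes, and so were 5 of 9 fatty acid genes. Scd2 and Scd1, at 0.885 and 0.316 times the enterocyte level in DMSO, were among the fatty acid genes that were lower. The share of all genes higher in goblet cells was not counted, so these counts have no background beside them.

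**Figure D4:**
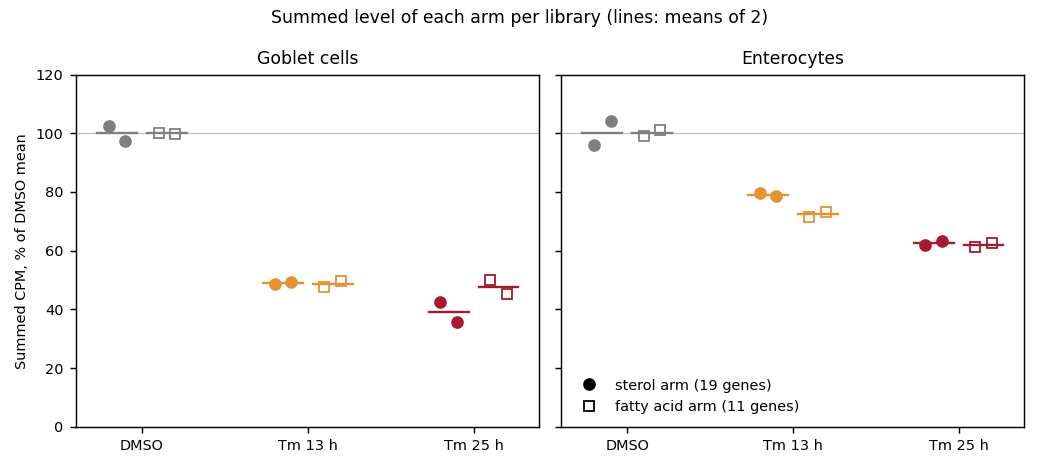
Summed CPM of the sterol arm (filled circles) and the fatty acid arm (open squares) as percent of the DMSO mean (y axis, from 0) in each library of goblet cells (left) and enterocytes (right); lines are means of 2 libraries. In goblet cells both arms lie at or below 50% after Tm with this TMM scaling, and in enterocytes they lie between 61% and 80%.

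Enterocytes of 1 library differed widely in these sums. After each cell was thinned to 5000 UMIs, which left out 2 to 13 shallower enterocytes per library, the median sterol sum was 10 and 11 UMIs per cell with DMSO, 8 and 8 after 13 h of Tm and 7 and 7 after 25 h. The 90th percentile was 31 and 31 UMIs with DMSO, 25.9 and 27 after 13 h and 20 and 19 after 25 h, and the 10th percentile was 2 in all 6 libraries, close to 0. The variance over the mean of the sterol sum was 11.01 and 10.7 with DMSO, 10.2 and 9.78 after 13 h of Tm and 7.09 and 8.35 after 25 h, so enterocytes differed among themselves by more than counting error, where this ratio is 1, in every library. The median fatty acid sum was 7 and 7 UMIs per cell with DMSO, 5 and 5 after 13 h and 4 and 4 after 25 h. Cells with a high sterol sum tended to have a high fatty acid sum. Pearson's r between the sums over the cells of a library was 0.609 and 0.527 in DMSO (1033 and 1024 cells), 0.516 and 0.495 at 13 h (682 and 720 cells) and 0.331 and 0.395 at 25 h (424 and 443 cells). These are descriptions of cells that share a library, and r also depends on the arms' counts per cell, which were lower after Tm. Scd2 alone made up 80.1% to 83.7% of the fatty acid sum in enterocytes, so r rests largely on that gene. No r was computed without Scd2. Free RNA, which enters all cells of a library, was not removed.

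**Figure D5:**
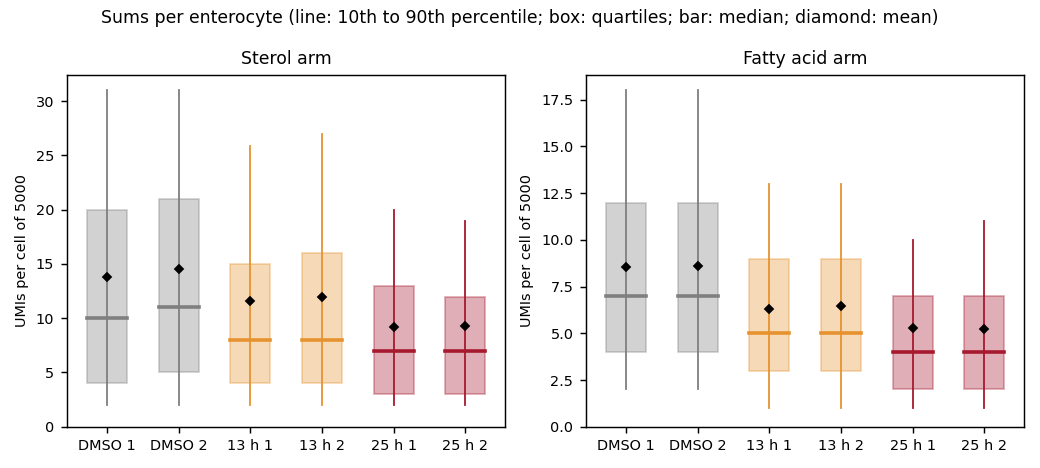
UMIs per enterocyte from the sterol arm (left) and the fatty acid arm (right) after thinning each cell to 5000 UMIs (y axis, from 0) in the 6 libraries; boxes give quartiles, lines the 10th to 90th percentile, bars the median and diamonds the mean. The median sterol sum is 10 and 11 with DMSO, 8 and 8 after 13 h and 7 and 7 after 25 h, and the upper ends of the lines shorten.

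The class that the submitters call tuft, after the chemosensory cells of the epithelium, held 12 to 27 cells per library and was not fitted. Its markers went against the name in part. Tuft markers summed to 36.9 and 62.9 CPM in its DMSO libraries, 128 and 323 CPM at 13 h and 292 and 83.4 CPM at 25 h, and to at most 4.75 CPM in the other classes. Enteroendocrine markers, of the hormone-secreting cells, were above the tuft sum in all 6 libraries. They summed to 1548 and 3908 CPM in DMSO, 131 and 336 CPM at 13 h and 397 and 1164 CPM at 25 h. Goblet cells held 265 to 276 CPM of them in DMSO and 43.5 to 58.1 CPM at 25 h. At 13 h goblet cells held 148 to 161 CPM, above the lower 13 h sum of the class named tuft. In both 13 h goblet libraries Sct was the only one detected. In each library of the class named tuft only 3 of the 8 enteroendocrine markers were detected and 5 were at 0, while 5 to 8 of the 8 tuft markers were detected. Goblet markers summed to 425 to 6836 CPM. The goblet and enteroendocrine sums were both highest in the second DMSO library, and their part in the values below was not tested. The sterol arm of this class held 1303 and 2751 CPM, not scaled with TMM, in the DMSO libraries, with exact 95% Poisson intervals of 1225 to 1384 and 2572 to 2940. At 13 h it held 947 and 940.2 CPM and at 25 h 1192 and 967. The DMSO libraries differed from each other by more than any Tm library differed from the lower of them, and no change was read from them. The intervals cover counting error only.

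Genes of the same pathways outside the 35 were described from a list of 44, of which 39 could be tested in enterocytes. At 13 h 18 fell and 6 rose, and at 25 h 17 fell and 10 rose, with medians of -0.21 and -0.07; of all genes 23.8% fell and 23.8% rose at 13 h and 24.2% fell and 26.1% rose at 25 h. Of 4 further sterol enzymes, 3 fell at 13 h and 2 at 25 h; Lbr, a sterol reductase of the nuclear envelope, fell at 13 h (-0.45 ± 0.13) but did not pass at 25 h (-0.05 ± 0.14), and Ggps1, which diverts isoprenoids to protein prenylation, passed at neither time. Of 8 genes of sterol uptake and trafficking, 5 fell at 13 h and 6 at 25 h. Npc1l1, the cholesterol importer of the intestinal brush border, had 87.4 and 83.8 CPM in DMSO, 57.7 and 56.3 CPM at 13 h and 25.9 and 31.1 CPM at 25 h. It fell with log2 fold changes of -0.59 ± 0.06 (adjusted p = 2.58e-06) and -1.58 ± 0.07 (adjusted p = 5.25e-10), with the 3 groups apart. Stard3, a late-endosomal sterol carrier, rose at 25 h by 0.50 ± 0.08. In the list for efflux and esterification, Abcg5 and Abcg8, which together export sterols to the lumen, fell at both times, Abcg5 with -0.59 ± 0.06 and Abcg8 with -0.61 ± 0.05 at 25 h. Soat2, which esterifies cholesterol for storage and for lipoproteins in the intestine, went the other way, with 10.3 and 11.7 CPM in DMSO, 34.9 and 38.4 CPM at 13 h and 40.2 and 40.8 CPM at 25 h. It rose by 1.74 ± 0.09 (adjusted p = 1.05e-09) and 1.88 ± 0.09 (adjusted p = 7.71e-10) in enterocytes, and by 1.93 ± 0.35 and 2.07 ± 0.33 in goblet cells. Its enterocyte rise was the largest among the 39 genes at both times.

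The genes that process SREBPs and sense sterols were mixed. Of 11, 2 rose and 2 fell at 13 h, and 5 rose and 2 fell at 25 h. Of all genes tested in enterocytes 23.8% rose and 23.8% fell at 13 h, and 26.1% rose and 24.2% fell at 25 h. Counts in lists this small were not read as results about the lists. Erlin1, part of an endoplasmic reticulum complex that binds sterols, had 49.6 and 48.9 CPM in DMSO, 74.8 and 70.7 CPM at 13 h and 63.6 and 55.5 CPM at 25 h and rose by 0.56 ± 0.06 and 0.27 ± 0.07. Its partner Erlin2 fell with log2 fold changes of -0.32 ± 0.07 and -0.32 ± 0.07, so the partners changed in opposite directions. Rnf145, a sterol-responsive ubiquitin ligase, fell with log2 fold changes of -0.28 ± 0.09 and -0.49 ± 0.11. Mbtps1, the first protease that cuts SREBPs in the Golgi, rose at 25 h (0.27 ± 0.10, adjusted p = 0.0399), and Mbtps2, the second protease, passed at neither time. Among 12 further fatty acid genes tested, 6 fell and 3 rose at 13 h, and 4 fell and 3 rose at 25 h. Acsl3 and Acsl5, which activate fatty acids with coenzyme A, fell at both times, Acsl3 with -0.87 ± 0.07 and Acsl5 with -0.73 ± 0.05 at 25 h. Slc25a1, the mitochondrial citrate exporter that feeds Acly, fell with log2 fold changes of -0.28 ± 0.06 and -0.38 ± 0.07. Elovl1, which lengthens very long chains, rose by 0.35 ± 0.05 and 0.28 ± 0.05.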

How the data were processed

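The deposited values were whole-number UMI counts per gene and cell from 10x 3′ libraries, with the submitters' class for each cell; the authors used Cell Ranger and mm10, per the submitters' processing notes, and the labels do not say how classes were assigned. Dead cells were removed before loading, per the labels' protocols. Kept cells had at least 1000 UMIs and 500 genes and no more than 25% mitochondrial UMIs; Scrublet called 31 doublets (0.605%), which stayed in except in an alternative. UMIs were summed per library and class (enterocytes 7760117 to 17429023, goblet cells 1052495 to 1425291) and tested with edgeR 4.0.16 in R 4.3.3 (filterByExpr, TMM, quasi-likelihood test, Benjamini-Hochberg adjustment over all genes tested); DESeq2 1.42.0 was an alternative. The difference between classes was an interaction with library as a block. For the fits within a class, leaving out each library, total-count scaling, no filter on low counts, other filters on cells and a replicate block were also tried. For the difference between classes only total-count scaling and a stricter limit on mitochondrial UMIs were tried, without DESeq2 and without leaving out any library. The scripts were tested on simulated data. CPM are TMM-scaled, and ± after a log2 fold change is its standard error. All 35 genes are named, with values in full for the 3 largest changes in each direction within a role group and a range for the others; values of further genes were added after they were seen. Some genes of the other pathway lists are counted but not reported here by name. Members and lists were chosen with earlier results of these data known. Gene positions are from GENCODE vM21 (GRCm38), with 27722 of 27998 identifiers matched. Promoter sequences are RefSeq's.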

Additional observations from a re-analysis of the deposited data

Results flagged for a closer look

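In 34 results the change in goblet cells and the change in enterocytes differed past an adjusted p of 0.05 in edgeR's interaction test, and in all 34 the goblet change was the more negative one. Values are goblet minus enterocyte log2 fold changes. Of the 10458 genes tested for it, 3.33% were negative and 1.48% positive past the threshold at 13 h, and 4.5% and 2.55% at 25 h. With total counts 188 genes were negative and 271 positive at 13 h, and 282 and 405 at 25 h. With scaling to total counts the calls of Pmvk, Cyp51 and Sc5d at 13 h and of Lss and Elovl6 at 25 h were lost, and that of Sc5d at 13 h also with at most 15% mitochondrial UMIs (adjusted p = 0.0551).

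At 13 h the mevalonate genes differed by -2.14 for Acat2, -1.15 for Idi1, -1.12 for Mvd, -0.95 for Mvk, -0.89 for Hmgcs1, -0.76 for Fdps and -0.67 for Pmvk. Between squalene and cholesterol the difference was -1.28 for Dhcr7, -1.06 for Lss, -0.98 for Hsd17b7, -0.91 for Sqle, -0.74 for Msmo1, -0.68 for Ebp, -0.65 for Fdft1, -0.55 for Cyp51 and -0.48 for Sc5d. Outside the sterol arm it was -0.76 for Srebf2 and -0.65 for Scd2.

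At 25 h the mevalonate genes differed by -0.92 for Mvd, -0.91 for Pmvk, -0.88 for Fdps, -0.85 for Hmgcs1 and -0.74 for Idi1. Between squalene and cholesterol the difference was -1.61 for Dhcr7, -0.85 for Lss, -0.83 for Sc5d, -0.73 for Ebp, -0.69 for Sqle, -0.64 for Cyp51, -0.59 for Fdft1 and -0.53 for Msmo1, and for the carrier Stard4 it was -0.53. In the fatty acid arm it was -1.09 for Elovl6 and -0.45 for Scd2. Goblet markers in goblet cells and enterocyte markers in enterocytes were both lower after Tm, and their part in these differences was not tested.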

How the results depend on the processing

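No change of direction occurred among the called values of the 35 genes under any alternative. In enterocytes 1022 of 1050 recomputed values of 75 called results stayed past the threshold, and in goblet cells 705 of 741 (57 results). For the class difference 62 of 68 did (34 results), but it was refitted only with total counts and with the stricter limit on mitochondrial UMIs. No library was left out of that fit and DESeq2 was not run for it. Whether the class differences depend on a single library was therefore not tested. The cause of the following shifts was not tested.

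With DESeq2 the number of all genes called was 3500 at 13 h and 1275 between 25 h and 13 h in enterocytes (edgeR 5307 and 2380), and 797, 1211 and 158 at 13 h, at 25 h and between them in goblet cells (edgeR 1754, 2491 and 274), where 4 fatty acid genes fell at 13 h instead of 7. Sterol genes lower at 25 h than at 13 h in goblet cells numbered 4 with total counts, 5 with no filter on low counts, 4 with the replicate block and 1 without doublets (2 in the report). Fatty acid genes with a more negative goblet response numbered 2 at 13 h with at most 15% mitochondrial UMIs, and 1 at 25 h with total counts.

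As percent of the DMSO mean, the enterocyte sterol sum was 81.9 at 13 h and 64.7 at 25 h with total counts, 75.5 and 59.8 without Fdps, and 77.8 and 61.2 with at most 15% mitochondrial UMIs. The fatty acid sum was 74.98 and 63.9 with total counts and 51.6 at 25 h without Scd2. The goblet class in place of enterocytes gave a sterol sum of 49.0 and 39.1 and a fatty acid sum of 48.6 and 47.7; its own values with total counts were 54.9 and 42.9 for the sterol arm and 54.4 and 52.3 for the fatty acid arm, and without Scd2 its fatty acid sum was 53.8 and 43.3. With enterocytes thinned to 3000 UMIs, their mean per cell at 25 h was 63.1 for the sterol arm (65.1 at 5000) and 61.6 for the fatty acid arm (61.3).

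Leaving out 1 library each time, the fatty acid genes lower at 25 h than at 13 h in enterocytes ranged over 1 to 4 and the sterol genes so called in goblet cells over 0 to 3. All genes called in goblet cells ranged over 1033 to 1770 at 13 h, lowest without the first DMSO library and 1125 without the first 13 h library, and over 139 to 249 between 25 h and 13 h, with 139 without the second 13 h and 175 without the second 25 h library.

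Total counts changed the split of higher and lower calls to 3050 and 2232 at 13 h in enterocytes (from TMM's 2652 and 2655), to 1256 and 580 at 13 h and 1639 and 931 at 25 h in goblet cells (849 and 905, 1235 and 1256), and to 271 and 188 at 13 h and 405 and 282 at 25 h for the class difference (155 and 348, 267 and 471). Replicate numbers did not pair the samples, with correlations of same-numbered deviations from -0.028 to 0.0073; with the replicate block 2559 genes rose and 2555 fell at 13 h in enterocytes, and 852 and 905 in goblet cells. Depth limits the values of the goblet class and of the class named tuft, and Fads1 and Fads2 were too low to test.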
